A study of Mus musculus with 16 samples.

Results

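Oligodendrocytes wrap axons of the brain in myelin, and the 30 genes described here mark the successive stages of that lineage. They were taken by gene symbol from a fixed list. The list holds 17 genes of mature, myelinating oligodendrocytes and 13 genes of precursor cells or of the lineage as a whole. All 30 were found among the 17097 genes measured, and all 30 passed the filter on low values in every comparison. Their lowest value in a library rested on 156 reads in the ribosome fraction and 157 reads in the tissue lysate, both for C1ql1. No value chose them, although the list was drawn up with earlier results of these data known.

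RNA was sequenced from whole striata of wild-type male C57BL/6J mice at postnatal day 63. Tissue was taken 2 h after an injection of clozapine N-oxide (CNO, 1 mg/kg), a ligand of designer receptors, or of vehicle, and the series title names activation of Gi signalling in striatal astrocytes. From each striatum RNA was taken from ribosomes pulled down through a hemagglutinin tag on astrocyte ribosomes (immunoprecipitate, IP) and from the cleared lysate before pull-down (input). This gave 4 groups of 4 libraries with replicates numbered 2 to 5: IP from CNO mice (CNO IP), IP from vehicle mice (vehicle IP), and the 2 matching groups of input. The titles carry 8 mouse codes, 4 per injection, each with 1 IP library and an input library, whereas the series text speaks of 4 mice. The code was taken as the animal. If several codes stand for 1 animal, the spread behind each p-value is in part technical. All groups share the genotype, age and sex. No label says which designer receptor was present, or which promoter, virus or strain carried the tag, and a group given CNO without a receptor was not analysed here.

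Oligodendrocyte precursors divide in response to platelet-derived growth factor through the receptor encoded by Pdgfra. As they differentiate under the transcription factors Olig2, Sox10 and Myrf they switch off precursor genes and switch on the genes of myelin proteins and myelin lipids. The striatum is crossed by myelinated fibre bundles and holds oligodendrocytes and precursors beside its neurons and astrocytes. Astrocytes supply factors that act on the lineage, among them growth factors and cytokines of the interleukin 6 family.

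The IP libraries held 52.1 to 61.5 M gene-assigned reads (M, 1000000 reads) and the inputs 32.8 to 40.3 M. Levels are CPM, reads per M of the normalized library size, and tests were made on the log2 CPM that the authors deposited. Calls are from limma at a Benjamini-Hochberg adjusted p under 0.05 over all genes tested, n = 4 libraries per group. The tag's target cells were checked by marker lists. All 20 astrocyte markers were higher in IP than in input (median log2 ratio 2.82 in CNO mice and 2.83 in vehicle mice), while 15 of 15 microglia markers, 12 of 12 endothelial markers and 12 of 12 medium spiny neuron markers were lower in both. Markers of further cell types went both ways. In CNO and in vehicle mice, 8 of 10 interneuron markers and 7 of 9 ependymal and choroid plexus markers were higher. Of these lists, 1 and 2 markers were lower in CNO mice and none in vehicle mice. Of 10 general neuron markers, 1 was higher and 5 lower in CNO mice, and 3 higher and 5 lower in vehicle mice. Of 10 fibroblast markers, 3 were higher and 7 lower in CNO mice, and 1 higher and 6 lower in vehicle mice. None of the astrocyte, microglia, endothelial or medium spiny neuron markers was at 0 in any library.

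The first comparison asks how the lineage genes were represented in the astrocyte ribosome fraction relative to the tissue. Unlike those microglia, endothelial and medium spiny neuron markers, most genes of mature oligodendrocytes were higher in IP than in input. In CNO mice 15 of the 17 mature genes and 8 of the 13 precursor or lineage genes were higher in IP, and 2 of the 13 were lower. In vehicle mice 11 of the 17 and 6 of the 13 were higher, and the same 2 of the 13, Lhfpl3 and C1ql1, were lower. The background is the share of all genes tested: 40.0% were higher and 35.0% lower in CNO mice, and 37.7% were higher and 37.2% lower in vehicle mice, and the count of precursor or lineage genes in vehicle mice was near it. The median log2 ratio of the mature genes was 0.80 in CNO mice and 0.64 in vehicle mice, that of the precursor or lineage genes 0.44 and 0.30 in the same order, and that of all genes tested 0.04 and 0.005. The difference between the ratios of CNO and vehicle mice is tested further on. IP and input of a mouse code come from the same striatum, and from which cells the oligodendrocyte RNA in IP came was not tested. For differences between mice in these bulk samples, fewer cells of a type and less RNA per cell cannot be told apart.

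The 4 transcription factors of the lineage were all higher in IP. Myrf, which switches on myelin genes at the end of differentiation, had 94.4, 136, 125 and 149 CPM in CNO IP, against 38.5, 26.3, 26.1 and 23.3 CPM in CNO input. It had 113, 65.7, 123 and 161 CPM in vehicle IP, against 25.7, 25.1, 21.4 and 25.2 CPM in vehicle input. The IP and input libraries did not overlap, and Myrf had the highest ratio of the 30 genes, a log2 ratio of 2.15 (SE 0.18, adjusted p = 4.06e-06) in CNO mice and 2.18 (SE 0.24, adjusted p = 4.91e-05) in vehicle mice. Sox10, which acts from specification of the lineage to myelination, had 88.7, 94.2, 114 and 111 CPM in CNO IP, against 38.1, 37.2, 42.6 and 34.7 CPM in CNO input. In vehicle mice Sox10 had 115, 77.6, 126 and 158 CPM in IP, against 50.2, 52.7, 42.1 and 43.9 CPM in input. Its groups did not overlap in either comparison, and its log2 ratio was 1.42 (SE 0.09) in CNO mice and 1.30 (SE 0.20) in vehicle mice. Olig2, which specifies the lineage and is also made in some astrocytes, had log2 ratios of 1.13 (SE 0.12) and 0.95 (SE 0.15) in CNO and vehicle mice, and its partner Olig1 of 0.82 (SE 0.09) and 0.78 (SE 0.11), with no overlap of libraries.

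The genes of myelin proteins spread widely around these ratios. Mag, an adhesion protein of the myelin membrane that faces the axon, had 496, 665, 665 and 722 CPM in CNO IP, against 221, 258, 235 and 199 CPM in CNO input. In vehicle mice Mag had 648, 405, 707 and 1025 CPM in IP, against 280, 299, 229 and 272 CPM in input. Every IP library lay above every input library, with log2 ratios of 1.47 (SE 0.12) in CNO mice and 1.30 (SE 0.25) in vehicle mice. Cnp, an enzyme of noncompacted myelin, stood at 1.37 (SE 0.11) and 1.30 (SE 0.20) in CNO and vehicle mice, and Cldn11, which forms the tight junctions between myelin layers, at 1.28 (SE 0.13) and 1.13 (SE 0.32). Cnp overlaps Dnajc7 on the opposite strand and Ermn overlaps Galnt5. Whether counting used strand is not given in the sources used here, and reads of such a pair then cannot be told apart. Ermn, a cytoskeletal protein of the myelin sheath, had log2 ratios of 1.06 (SE 0.15) in CNO mice and 0.94 (SE 0.28) in vehicle mice.

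Mbp, which compacts the myelin membrane, was the most abundant of the 30 genes by CPM in every library. It had 2433, 2973, 3111 and 3335 CPM in CNO IP, against 2098, 2140, 1907 and 1551 CPM in CNO input, a log2 ratio of 0.62 (SE 0.12, adjusted p = 9.35e-04) with no overlap. It had 3128, 1593, 3314 and 4519 CPM in vehicle IP, against 2216, 2271, 1885 and 1827 CPM in vehicle input. There the groups overlapped, because 1 of the vehicle IP libraries lay below all 4 vehicle inputs, and the log2 ratio of 0.53 (SE 0.28, adjusted p = 0.121) did not pass the threshold. Mobp, a structural protein of compact myelin, had the lowest ratio of the mature genes in vehicle mice, 0.03 (SE 0.28), and 0.14 (SE 0.13) in CNO mice, neither past the threshold. It had 285, 363, 323 and 351 CPM in CNO IP, against 316, 362, 293 and 237 CPM in CNO input, and 343, 165, 352 and 458 CPM in vehicle IP, against 336, 327, 276 and 277 CPM in vehicle input. Myelin genes whose proteins sit in the same sheath thus had log2 ratios from 0.14 for Mobp to 1.47 for Mag in CNO mice. Ppp1r14a, an inhibitor of myosin phosphatase, was the lowest mature gene in CNO mice (log2 ratio 0.10, SE 0.15), and it was at 0.20 (SE 0.35) in vehicle mice. Mog, a protein of the outer myelin surface, Mal, a protein of myelin membrane rafts, and Aspa, which cleaves N-acetylaspartate, were higher in IP in both comparisons, with log2 ratios of 0.64 to 0.72 in CNO mice and 0.60 to 0.64 in vehicle mice. With the mouse as a block these 3 genes did not pass in vehicle mice (adjusted p = 0.0834 for Mog, 0.0877 for Mal and 0.0598 for Aspa), so that 14 genes rather than 17 were higher there.

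Of the genes for transport, lipid synthesis and junctions, Trf, which encodes the iron carrier transferrin and is made in oligodendrocytes, had 1524, 2250, 2311 and 2494 CPM in CNO IP, against 589, 805, 799 and 697 CPM in CNO input. In vehicle mice Trf had 2156, 1078, 2114 and 4202 CPM in IP, against 825, 763, 651 and 1121 CPM in input. The log2 ratio was 1.56 (SE 0.16) in CNO mice without overlap, and 1.37 (SE 0.38) in vehicle mice with overlap of a low IP and a high input library. Ugt8a, which makes galactosylceramide, was at 0.80 (SE 0.11) and 0.76 (SE 0.23) in CNO and vehicle mice, and Tmem88b, a transmembrane protein gene, at 1.14 (SE 0.13) and 0.86 (SE 0.28), all past the threshold. Gjb1, a gap junction protein, Opalin, a myelin membrane glycoprotein, and Hapln2, a link protein of the matrix at nodes of Ranvier, passed in CNO mice (log2 ratios 0.83, 0.57 and 0.44), and in vehicle mice had 0.54, 0.56 and 0.06 without passing.

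Genes of precursor cells went in both directions. Cspg4, which encodes the NG2 proteoglycan of precursors and pericytes, had 51.2, 55.1, 44.0 and 48.1 CPM in CNO IP, against 26.7, 25.9, 24.8 and 25.7 CPM in CNO input. It had 62.1, 66.3, 50.4 and 62.2 CPM in vehicle IP, against 28.5, 28.7, 26.2 and 30.3 CPM in vehicle input, and its groups were apart in both (log2 ratios 0.94, SE 0.07, and 1.08, SE 0.09). The matrix genes Vcan and Tnr were also higher in IP, Vcan by 0.96 and 1.01 and Tnr by 0.50 and 0.58 on the log2 scale in CNO and vehicle mice. Lhfpl3, a membrane protein gene used as a precursor marker, had 29.6, 23.6, 24.0 and 15.9 CPM in CNO IP, against 47.4, 38.6, 36.6 and 34.7 CPM in CNO input. In vehicle mice Lhfpl3 had 24.4, 33.5, 18.4 and 18.6 CPM in IP, against 40.3, 42.2, 40.2 and 35.4 CPM in input. All its IP libraries lay below all its inputs, and it fell by 0.78 on the log2 scale in both comparisons (SE 0.18 in each). C1ql1, a secreted C1q-like protein gene, was the other gene lower in IP, with log2 ratios of -0.37 (SE 0.13) in CNO mice, where the groups overlapped, and -0.50 (SE 0.14) in vehicle mice, where they did not. Gpr17, a receptor of cells that leave the precursor state, had log2 ratios of 0.03 (SE 0.11) and 0.02 (SE 0.15) in CNO and vehicle mice, and it overlaps Lims2 on the opposite strand. Neu4, a sialidase gene, and Pcdh15, a protocadherin gene, did not pass in either comparison, with log2 ratios between -0.14 and 0.00. Pdgfra, the growth factor receptor that defines precursors, and Enpp6, an enzyme of newly forming oligodendrocytes, passed in CNO mice at 0.29 (SE 0.08) and 0.44 (SE 0.17), and had 0.26 (SE 0.16) and 0.30 (SE 0.34) in vehicle mice.

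**Figure D1:**
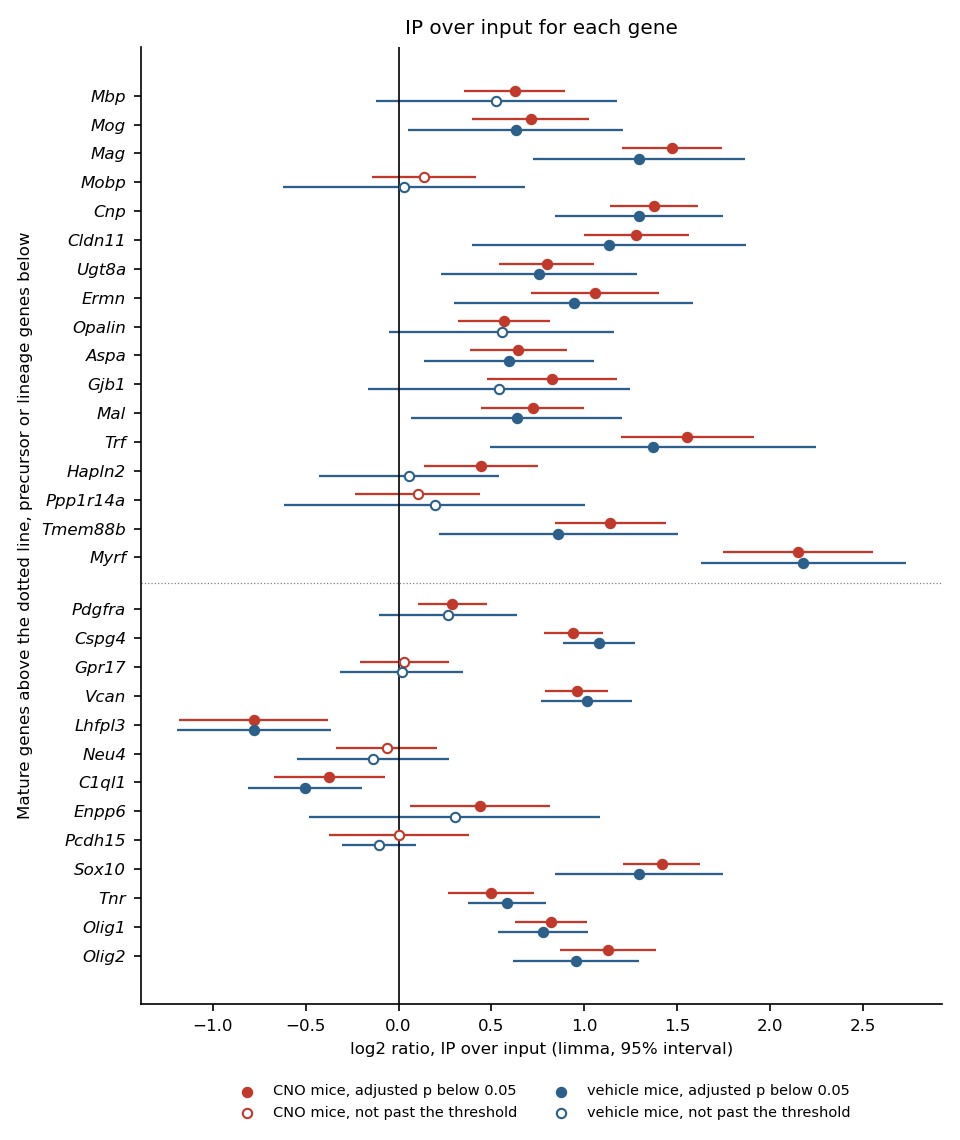
The log2 ratio of IP over input is plotted for each of the 30 genes, CNO mice in red above vehicle mice in blue, with limma's 95% interval as a line and filled points for an adjusted p under 0.05. Myrf lies farthest to the right at 2.15 and 2.18, Lhfpl3 and C1ql1 are the filled points left of 0, and the intervals of most mature genes are wider in vehicle mice than in CNO mice.

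Further genes of the same stages, from lists drawn up beside the 30, were counted in the same way. Of 31 other genes of myelin and mature oligodendrocytes, 28 were higher and none lower in IP in CNO mice, and 23 were higher and none lower in vehicle mice, with median log2 ratios of 1.05 and 0.94. The highest of this list in CNO mice were Ndrg1 (1.67), the receptor gene Gpr37 (1.56), the actin-binding gene Gsn (1.50) and the carbonic anhydrase gene Car2 (1.50). In vehicle mice the highest were Gpr37 (1.51), Car2 (1.47), Gsn (1.42) and the adhesion gene Cntn2 (1.37). Of 23 other genes of precursors and differentiating cells, 14 were higher and 3 lower in CNO mice, and 16 were higher and 4 lower in vehicle mice. The highest of these, Ptprz1, Itpr2, Tcf7l2 and Sox6, had log2 ratios of 2.14 to 3.08 in CNO mice and 2.22 to 3.16 in vehicle mice. The median of their list was 0.56 in CNO mice and 0.61 in vehicle mice, and that of the astrocyte markers 2.82 and 2.83. Astrocytes also express Ptprz1, and from which cells the RNA of Itpr2, Tcf7l2 and Sox6 came was not tested. The lowest were Bmp4, a differentiation-blocking ligand, at -1.70 in CNO mice and -1.14 in vehicle mice, Lims2 at -0.67 and -0.63, and Cacng4 at -0.53 and -0.43, and Dll1 was lower in vehicle mice (-0.28). In vehicle mice the call of Cacng4 was lost in 6 alternatives (adjusted p 0.0591 to 0.181) and that of Dll1 in 1 (adjusted p = 0.0540). Of the genes of factors that act on the lineage, 12 of 23 tested were higher and 5 lower in IP in CNO mice, and 10 of 22 were higher and 4 lower in vehicle mice. The highest in CNO mice were the matrix gene Tnc (3.31), the growth factor gene Fgf2 (2.75), the protease inhibitor gene Timp1 (2.57) and the cytokine gene Il11 (2.56). The highest in vehicle mice were Tnc (2.99), the Wnt ligand gene Wnt7b (2.54), Fgf2 (2.48) and the laminin gene Lama2 (2.30). The lowest in both, beside Bmp4, were the chemokine gene Cxcl12 (-1.81 in CNO mice and -2.23 in vehicle mice), Tgfb1 (-1.33 and -1.69) and Sema3a (-0.73 and -0.60).

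Levels per length give an order of the genes within the ribosome fraction that depends on the length used. The merged length counts every annotated exon of a gene, 8.469 kb for Mbp and 3.32 kb for Trf. Which transcripts were present was not tested, and by CPM without length Mbp was above Trf in every library. Per kilobase of merged exon, Trf was the most abundant of the 30 with 646 ± 128 CPM per kb in CNO IP and 719 ± 394 CPM per kb in vehicle IP (SD, n = 4). Mbp followed with 350 ± 45.3 in CNO IP and 371 ± 142 in vehicle IP, then Cnp with 271 ± 27.8 and 300 ± 81.8, Mal with 265 ± 40.6 and 266 ± 93.7 and Cldn11 with 247 ± 39.8 and 258 ± 113, all in CPM per kb. The ranges of mean ± SD of Cnp, Mal and Cldn11 overlapped in both groups, and differences between these genes within a library were not tested. The lowest was Pcdh15, with 0.731 ± 0.0863 CPM per kb in CNO IP and 0.687 ± 0.0707 CPM per kb in vehicle IP. Olig1 was the highest of the precursor or lineage genes, with 59.1 ± 5.43 CPM per kb in CNO IP and 64.2 ± 9.32 CPM per kb in vehicle IP.

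The mature genes varied together between IP libraries. All 17 were lowest in vehicle IP replicate 3 and highest in vehicle IP replicate 5 among the 8 IP libraries, a pattern held by 7.32% of all genes tested. The pattern was seen in these data and then counted, and it carries no test. Summed over the 17 genes, the level was 7288, 9633, 9707 and 10484 CPM in CNO IP and 9631, 5190, 9904 and 14978 CPM in vehicle IP. The vehicle IP libraries thus spanned 2.89-fold between their lowest and highest, the CNO IP libraries 1.44-fold, and the CNO IP libraries lay inside the range of the vehicle ones. The widest single gene was Trf, whose highest vehicle IP library was 3.90-fold its lowest. The median SD of the 17 genes on the log2 scale was 0.24 in CNO IP and 0.59 in vehicle IP, beside 0.11 and 0.12 for all genes tested in the same groups.

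The precursor or lineage genes shared this pattern only in part. Of the 13 genes, 4 were lowest in vehicle IP replicate 3 and highest in replicate 5, namely Vcan, Enpp6, Sox10 and Olig1, beside 7.32% of all genes tested. With Olig2, 5 of the 13 were lowest in replicate 3, beside 18.8% of all genes tested. Pdgfra, Cspg4, Gpr17 and Lhfpl3 were instead highest in vehicle IP replicate 3, as were 14.7% of all genes tested. Neu4 was highest in vehicle IP replicate 2, C1ql1 and Pcdh15 in CNO IP replicate 2, and Tnr and Olig2 in CNO IP replicate 5. Pdgfra had 87.7, 81.2, 66.7 and 70.9 CPM in CNO IP and 91.7, 106, 59.8 and 70.5 CPM in vehicle IP. The sum over the 13 genes was 726 to 781 CPM in CNO IP and 745 to 833 CPM in vehicle IP, a narrow range beside that of the mature sum. The ratio of the mature sum to the precursor sum therefore was 6.83 in vehicle IP replicate 3 and 17.99 in vehicle IP replicate 5, with 9.89 to 13.6 in CNO IP. Single genes of the 13 varied more than their sum. Their median SD on the log2 scale was 0.18 in CNO IP and 0.31 in vehicle IP, beside 0.11 and 0.12 for all genes tested. Enpp6 ran from 7.64 to 29.0 CPM in vehicle IP. Of the 31 other myelin genes, 25 had the pattern of the 17 mature genes.

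The input of the same mice did not show it. None of the 17 mature genes was both lowest in vehicle input replicate 3 and highest in replicate 5, near the share of 7.03% of all genes tested. Vehicle input replicate 3 was the highest input for 9 of the 17, and for 13.5% of all genes tested. The mature sum was 4717, 5341, 4742 and 4050 CPM in CNO input and 5422, 5486, 4510 and 5078 CPM in vehicle input. All 4 vehicle inputs fell within 4510 to 5486 CPM although the IP libraries of the same mice spanned the widest range. Taken mouse by mouse, the median log2 difference of IP minus input over the mature genes was 0.55, 0.58, 0.93 and 1.22 in the CNO mice and 0.58, -0.17, 0.95 and 1.40 in the vehicle mice. In the vehicle mouse of replicate 3 only 6 of the 17 genes were higher in IP than in input, whereas 15 to 17 were in each other mouse. For the precursor or lineage genes the same medians lay between 0.33 and 0.52 in all 8 mice, and for the astrocyte markers between 2.57 and 2.99.

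Other marker lists were looked at in the same libraries. Astrocyte markers summed to 37388 to 41373 CPM in CNO IP and to 36185 to 43606 CPM in vehicle IP, with vehicle IP replicate 5 the lowest and replicate 3 at 40952 CPM. Microglia markers summed to 86.0 to 102 CPM in CNO IP and to 107, 77.1, 101 and 126 CPM in vehicle IP, and to 1232 to 1789 CPM in CNO input and 1709, 971, 1617 and 2475 CPM in vehicle input. They were lowest in replicate 3 and highest in replicate 5 of the vehicle mice for 7 of 15 markers in IP and 11 of 15 in input. The shares of all genes tested were 7.32% in IP and 7.03% in input. Their part in the pattern of the mature genes was not tested. Without vehicle IP replicate 3, 23 genes of the 30 rather than 17 were higher in vehicle IP than in input, with Mbp, Mobp, Opalin, Gjb1, Ppp1r14a and Enpp6 added. With replicates 3 and 5 of vehicle IP both left out, an alternative chosen after the data were seen, 22 were.

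**Figure D2:**
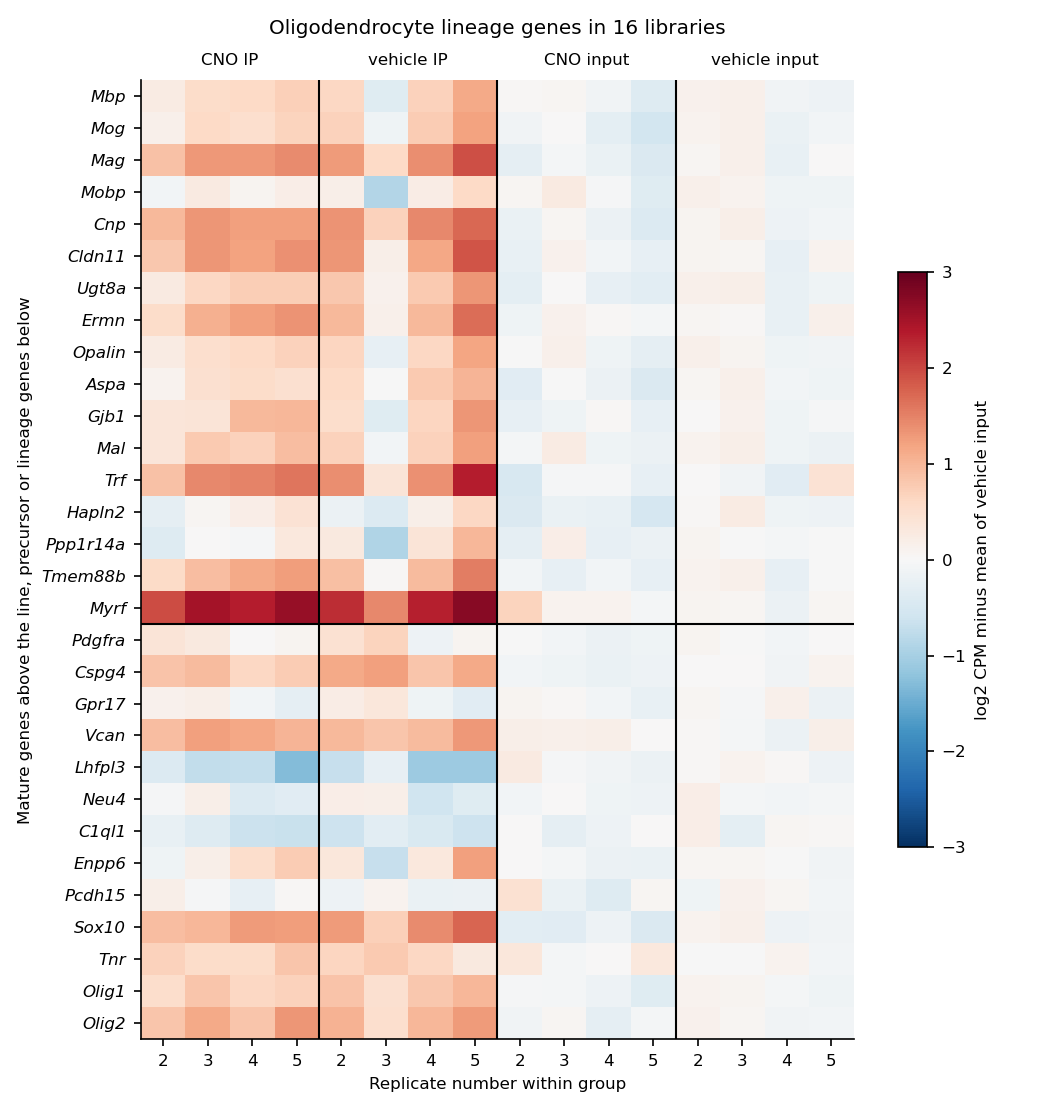
The heat map gives log2 CPM of each gene in each of the 16 libraries minus its mean in vehicle input, red for higher and blue for lower, with the 17 mature genes above the line and the 13 precursor or lineage genes below. Among the 8 IP columns, vehicle IP replicate 3 has the lowest and replicate 5 the highest value for all 17 mature genes, while Pdgfra, Cspg4, Gpr17 and Lhfpl3 are highest in replicate 3.

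**Figure D3:**
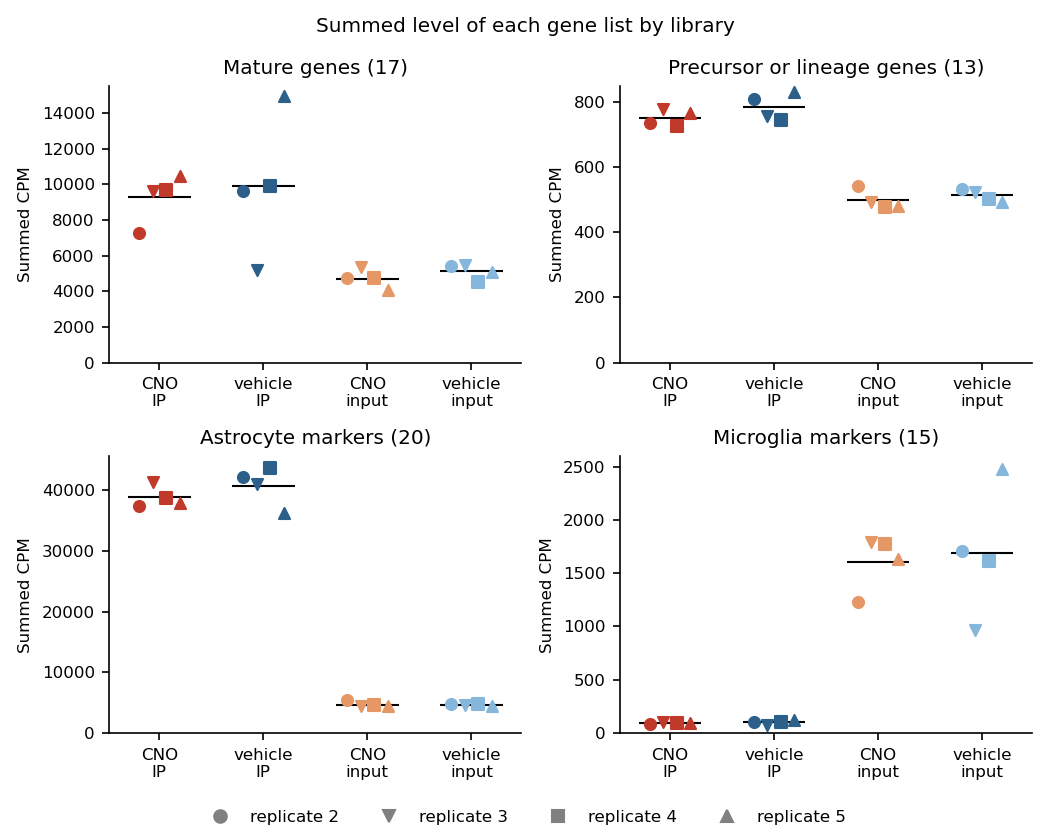
Summed CPM of 4 gene lists is plotted for each library, with a symbol for each replicate number, a bar at the group mean and axes that start at 0. The sum of the mature genes spans 5190 to 14978 CPM in vehicle IP and 7288 to 10484 CPM in CNO IP. The sum of the precursor or lineage genes stays within 726 to 833 CPM in all IP libraries.

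Since the mature genes moved together, the stretch before the start of 4 of them is shown. RefSeq (GRCm38.p6) gave a window of 250 bases before the start for 23 of the 30 genes. There was none for Mbp, Trf, Myrf, Gpr17, C1ql1, Sox10 and Olig1. Capitals mark the words ACAAAG and ACAATG, which contain the core of SOX family sites, and CTGGCAC and CTGGTAC, the core of MYRF sites, on either strand, so that a reverse complement is also in capitals. In the sequences printed no match overlaps another. They run 5′ to 3′ on the strand of the gene and stop where the gene model begins, and for Mag the first of 3 windows is shown.
Mog, chr17:37023399-37023648, minus strand: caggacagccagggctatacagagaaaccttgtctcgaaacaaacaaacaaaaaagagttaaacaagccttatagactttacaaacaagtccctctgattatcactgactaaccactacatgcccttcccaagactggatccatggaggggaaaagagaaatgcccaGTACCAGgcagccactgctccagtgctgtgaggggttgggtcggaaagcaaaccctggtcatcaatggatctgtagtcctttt
Mag, chr7:30914874-30915113, minus strand: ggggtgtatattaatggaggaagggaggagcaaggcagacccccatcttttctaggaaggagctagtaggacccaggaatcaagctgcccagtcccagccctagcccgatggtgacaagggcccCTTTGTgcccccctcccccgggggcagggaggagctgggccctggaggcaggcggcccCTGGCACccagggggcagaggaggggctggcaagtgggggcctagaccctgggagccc
Cnp, chr11:100574689-100574903, plus strand: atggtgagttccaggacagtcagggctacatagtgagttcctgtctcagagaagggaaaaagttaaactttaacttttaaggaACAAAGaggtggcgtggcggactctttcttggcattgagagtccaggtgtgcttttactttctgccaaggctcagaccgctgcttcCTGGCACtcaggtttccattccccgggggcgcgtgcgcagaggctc
Mobp, chr9:120149492-120149706, plus strand: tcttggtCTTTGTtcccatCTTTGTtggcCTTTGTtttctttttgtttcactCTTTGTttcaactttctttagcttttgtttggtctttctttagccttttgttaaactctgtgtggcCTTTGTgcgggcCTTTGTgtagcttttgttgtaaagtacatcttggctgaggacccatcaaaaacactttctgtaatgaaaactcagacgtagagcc

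Mog, Mag and Cnp are shown because their windows hold a MYRF word, as does that of Hapln2, and Mobp because its window holds 6 SOX words and no MYRF word. In the first window of each gene, a SOX word was found in 8 of 14 mature genes and 3 of 9 precursor or lineage genes, against 25.5% of the 27025 windows of all genes. A MYRF word was found in 4 of 14 mature genes and 0 of 9 precursor or lineage genes, against 5.86% of all windows. A match is a description of the letters and does not show a site in use, and the 4 genes printed shared their lowest and highest IP library with the other 13 mature genes, with or without a word.

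The main comparison asks what the injection of CNO changed in the ribosome fraction within 2 h. None of the 30 genes passed the threshold between CNO IP and vehicle IP, in limma or in limma-voom, although 17.3% of all genes tested did (10.2% higher and 7.08% lower in CNO). Of the calls over all genes 59.2% were higher, and 39.3% were with upper quartile scaling and 48.1% with median of ratios scaling. Of the 30 genes, none was higher and 1 was lower at an unadjusted p under 0.05, beside 15.4% higher and 14.2% lower among all genes tested, and with vehicle IP replicates 3 and 5 left out none passed either. The log2 fold changes ran from -0.28 to 0.18, with a median of 0.00 for the mature genes and -0.01 for the precursor or lineage genes, beside -0.01 for all genes. The SE was 0.20 to 0.37 for the mature genes (median 0.27), beside a median of 0.09 for all genes tested, and the 95% intervals of the mature genes reached from -1.03 to 0.89. Mbp, with the values given above, had a log2 fold change of 0.00 (95% interval -0.64 to 0.65). Differences across that interval are compatible with these values, and the lack of a call does not show that Mbp was unchanged. Myrf had the highest fold change of the 30, 0.18 (95% interval -0.42 to 0.77), and Ppp1r14a the lowest of the mature genes, -0.22 (95% interval -1.03 to 0.60), with groups that overlapped for each.

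Cspg4 came nearest to a call. It had 51.2, 55.1, 44.0 and 48.1 CPM in CNO IP, against 62.1, 66.3, 50.4 and 62.2 CPM in vehicle IP, a log2 fold change of -0.28 (SE 0.10, adjusted p = 0.0839). The groups overlapped through vehicle IP replicate 4, whose 50.4 CPM lay below 2 of the CNO libraries. Without that library the log2 fold change was -0.36 (adjusted p = 0.0215), and Cspg4 also passed with upper quartile scaling (-0.34, adjusted p = 0.0428). Cspg4 is also a gene of pericytes, and the 11 pericyte and smooth muscle markers summed to 140 to 166 CPM in CNO IP and 200 to 206 CPM in vehicle IP, with 1 marker higher, 1 lower and none at 0 in a library. Their part in the difference was not tested. The other precursor genes had fold changes between -0.07 (Pdgfra) and 0.09 (Pcdh15), and of the transcription factors Sox10 had -0.19 (SE 0.20), Olig1 -0.11 (SE 0.11) and Olig2 0.08 (SE 0.17).

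In input the same comparison asks what CNO changed in the tissue as a whole. Again none of the 30 genes passed, in limma or in limma-voom, but few genes did: 0.998% of all genes tested, 0.815% higher and 0.183% lower. Here the estimates were more precise, with a median SE of 0.11 for the mature genes, and 27 of the 30 fold changes were below 0, beside 9097 of 15825 for all genes tested. Several lists of other cell types also leaned below 0. These were 12 of 12 endothelial markers (median -0.32, 2 called lower) and 10 of 11 pericyte and smooth muscle markers (median -0.25, 1 called lower). Below 0 with no call were 9 of 10 fibroblast (median -0.38), 11 of 12 medium spiny neuron (median -0.10) and 15 of 20 astrocyte markers (median -0.11). Microglia markers were nearer to even, with 9 of 15 below 0 (median -0.04). Neuron and interneuron markers were also nearer to even, with 6 of 10 above 0 in each (medians 0.05 and 0.03). Of 8 ependymal and choroid plexus markers, 5 were above 0 (median 0.13). No microglia, neuron, interneuron or ependymal marker was called. The part of all these lists in the fold changes of the 30 genes was not tested. The median was -0.15 for the mature genes, -0.10 for the precursor or lineage genes and -0.02 for all genes tested, with 95% intervals between -0.58 and 0.53. At an unadjusted p under 0.05 none of the 30 was higher and 5 were lower, namely Sox10, Hapln2, Mag, Aspa and Cspg4, beside 4.05% higher and 6.03% lower among all genes tested. Sox10 had 38.1, 37.2, 42.6 and 34.7 CPM in CNO input, against 50.2, 52.7, 42.1 and 43.9 CPM in vehicle input (log2 fold change -0.31, SE 0.09, adjusted p = 0.209). Hapln2 had 20.6, 24.2, 23.9 and 19.6 CPM in CNO input, against 28.3, 33.3, 25.4 and 25.1 CPM in vehicle input (log2 fold change -0.34, SE 0.11, adjusted p = 0.258). Its groups did not overlap, and how many of all genes tested had such groups was not counted. Myrf, Vcan and Tnr were the 3 genes with a fold change above 0, at 0.20, 0.13 and 0.16 with adjusted p between 0.628 and 0.709. CNO input replicate 5 was the lowest of the 8 inputs for 11 of the 17 mature genes, and for 14.9% of all genes tested.

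**Figure D4:**
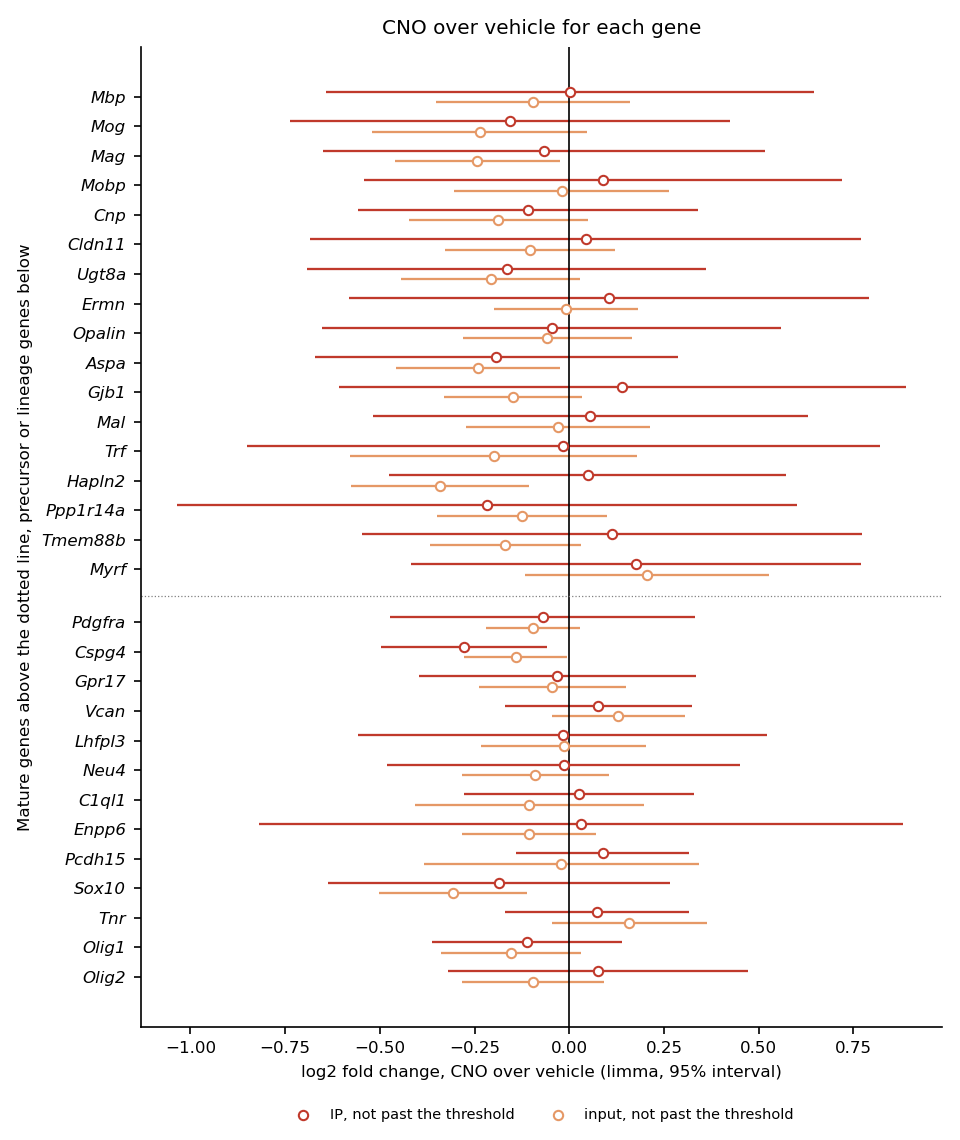
The log2 fold change of CNO over vehicle is plotted for each of the 30 genes, in IP in red above input in orange, with limma's 95% interval as a line, and open points mark genes that did not pass the threshold. No point is filled, the intervals of the mature genes are wider in IP than in input, and 27 of the 30 input points lie left of 0.

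The difference between the effects of CNO in IP and in input was tested over the 16 libraries, and it is the same quantity as the difference between the IP over input ratios of CNO and vehicle mice. None of the 30 genes passed in limma, in limma-voom or with the mouse as a block, which raised the calls over all genes to 1240 beside 773. The background was 4.76% of all genes tested (88.0% of these calls higher, 73.2% with upper quartile scaling), and none of the 30 had an unadjusted p under 0.05, beside 14.9% of all genes tested. The differences ran from -0.14 for Cspg4 to 0.39 for Hapln2 on the log2 scale. For Hapln2 the 95% interval was -0.19 to 0.97. The larger count of genes called higher in IP in CNO mice than in vehicle mice is not matched by a detected difference for any gene.

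Outside the 30 genes, a few genes of the lineage lists were called between CNO IP and vehicle IP. Sox8, a relative of Sox10 that is expressed in oligodendrocytes and also in astrocytes, had 66.3, 77.5, 67.1 and 63.2 CPM in CNO IP, against 109, 104, 119 and 123 CPM in vehicle IP. The groups did not overlap and the log2 fold change was -0.73 (SE 0.08, adjusted p = 1.96e-04). Nkx2-2, a transcription factor of differentiating precursors, had 2.86, 4.16, 4.10 and 3.55 CPM in CNO IP, against 6.20, 4.24, 6.17 and 5.91 CPM in vehicle IP (log2 fold change -0.62, SE 0.17, adjusted p = 0.0331), a call that 7 alternatives lost. Rras2, a Ras-related GTPase gene, had 11.2, 12.2, 12.8 and 12.6 CPM in CNO IP, against 7.74, 6.27, 6.82 and 9.27 CPM in vehicle IP (log2 fold change 0.71, SE 0.12, adjusted p = 3.42e-03). These 3 were the called genes among the 23 of the precursor and differentiation list. Among the 31 other myelin genes only Omg, an oligodendrocyte and neuronal glycoprotein gene, was called (log2 fold change -0.22, SE 0.06, adjusted p = 0.0371), and 5 alternatives lost that call. In input 0 of the 23 and 0 of the 31 genes were called in limma, with 3 and 11 of them lower and none higher at an unadjusted p under 0.05, beside the 6.03% lower and 4.05% higher of all genes tested.

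Several genes of factors that act on the lineage were called. Of 23 such genes tested in IP, 6 were higher and 3 lower in CNO mice, and of 23 tested in input 4 were higher and none lower. Il11, a cytokine of the interleukin 6 family that promotes survival of oligodendrocytes, had 72.0, 65.8, 71.8 and 80.5 CPM in CNO IP, against 0.413, 0.218, 0.376 and 0.497 CPM in vehicle IP. Every CNO library lay far above every vehicle library, with a log2 fold change of 7.63 (SE 0.22, adjusted p = 9.95e-08). Lif, another cytokine of this family, had 21.3, 19.6, 17.5 and 19.7 CPM in CNO IP, against 4.36, 3.40, 4.49 and 4.64 CPM in vehicle IP (log2 fold change 2.21, SE 0.11, adjusted p = 1.65e-06). Clcf1, a ligand of the ciliary neurotrophic factor receptor, was higher by 3.78 (SE 0.29) and Fgf2, a mitogen of precursors, by 1.85 (SE 0.11) on the log2 scale, with no overlap of groups for either. Clcf1 rested on few reads, 131, 163, 167 and 147 in CNO IP against 11, 7, 12 and 18 in vehicle IP. The chemokine gene Cxcl1 had 2.48, 2.96, 1.69 and 4.46 CPM in CNO IP, against 0.132, 0, 0.0752 and 0.699 CPM in vehicle IP (adjusted p = 0.0259), and 6 alternatives lost its call. Tnc, a matrix protein gene, was higher by 0.60 (SE 0.14), and its call was lost without vehicle IP replicate 4 (0.52, adjusted p = 0.0542).

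In input Il11 was higher by 4.98 (SE 0.20), Cxcl1 by 2.46 (SE 0.45), Lif by 1.88 (SE 0.27) and Fgf2 by 1.57 (SE 0.23) on the log2 scale, and 6 alternatives lost the call of Cxcl1. The genes lower in CNO IP were Jag1, a Notch ligand (-0.72, SE 0.14, adjusted p = 6.62e-03), Pdgfc, a ligand of the receptor encoded by Pdgfra (-0.28, SE 0.08, adjusted p = 0.0433), and Wnt7b, a Wnt ligand (-0.16, SE 0.04, adjusted p = 0.0180). The calls of Pdgfc and Wnt7b were lost in 9 and 5 alternatives. Pdgfa, the main mitogen of precursors, had 16.2, 21.4, 17.3 and 19.5 CPM in CNO IP, against 20.1, 16.1, 19.9 and 21.4 CPM in vehicle IP (log2 fold change -0.06, 95% interval -0.31 to 0.19). The growth factor gene Igf1 (-0.10, SE 0.24) and Bmp4 (-0.80, SE 0.38, adjusted p = 0.199) did not pass. The effect of CNO was larger in IP than in input for Il11, by 2.65 (SE 0.30, adjusted p = 3.27e-05), and for Clcf1, by 2.56 (SE 0.45, adjusted p = 2.26e-03) on the log2 scale. Both had few reads in vehicle input, 14, 18, 20 and 15 for Il11 and 10, 12, 20 and 20 for Clcf1.

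**Figure D5:**
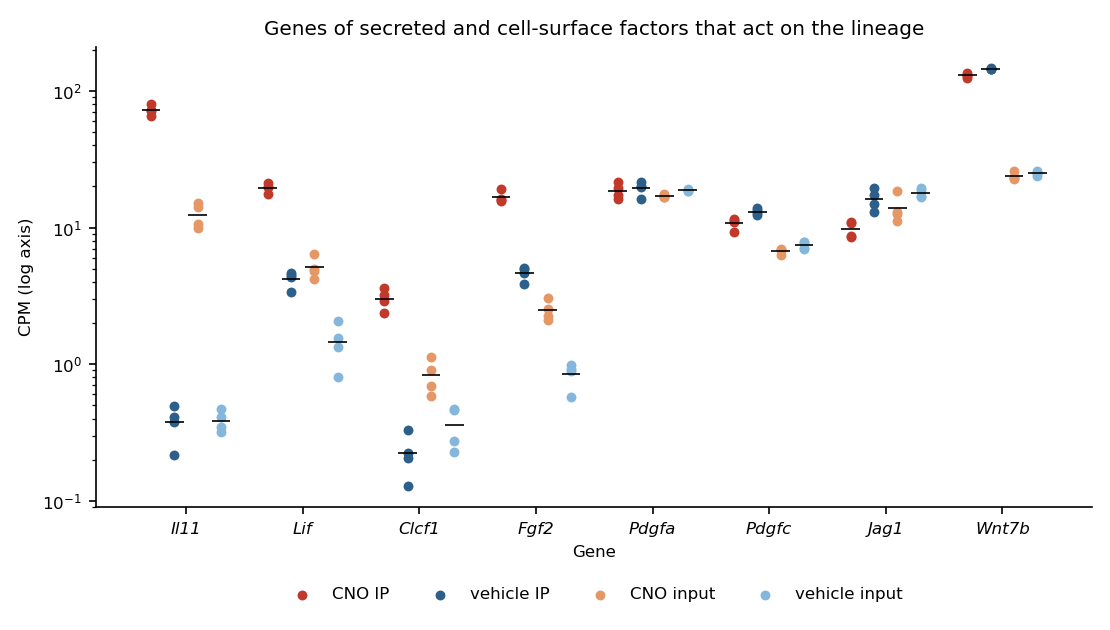
CPM of 8 genes of factors that act on the lineage is plotted on a log axis for each library, with a bar at the group mean and, from left to right, IP of CNO and vehicle mice and then input of CNO and vehicle mice. Il11, Lif, Clcf1 and Fgf2 are higher in CNO IP than in vehicle IP without overlap, while the values of Pdgfa overlap.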

How the data were processed

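RNA was measured in 16 libraries, 4 in each group, grouped by the labels' injection and RNA sample type. Per the labels' protocols, mRNA was enriched and paired-end libraries were prepared with a Nugen Ovation kit. The submitters' processing notes list mm10 as the build, and limma, HTSeq, STAR and bcl2fastq 2.17 as tools. The authors deposited log2 CPM for 17098 gene lines per library, and the values fit a prior count of 0.25. Whole reads were recovered from these values within 0.01 read, and CPM in the text are recovered reads per 1000000 of the authors' normalized library size. A duplicate line was dropped, and 2 lines that share a symbol are not named. The fewest reads of any of the 30 genes in a library were 156, and errors are given as the spread between libraries.

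A gene was tested if its reads summed to 15 or more and if 4 or more libraries reached the CPM that 10 reads make in the median library. Tests were made with limma 3.58.1 in R 4.3.3 (trend and robust settings) on the deposited log2 values of the groups compared, and p-values were adjusted over all genes tested. The design had named a count model for the case of counts, and none was used because the unit is log2. The scripts were tested on simulated data. Gene models are those of GRCm38. Named are all 30 genes and, of each further lineage list, up to 4 called genes per direction with the largest log2 fold change, plus Pdgfa, Bmp4, Il11, Lif and Igf1. The marker lists of other cell types, which the rule also covers, are given by counts only, and a further gene named by the rule is not reported here. Tnc and Fgf2 in the comparison of CNO IP with vehicle IP and the overlapping genes are named beyond that rule, after their values were seen. The 30 genes and the lists were chosen with earlier results of these data known.

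IP and input of a mouse share the mouse code, and their deviations from the group means correlated at 0.18 to 0.55 across genes, so these comparisons were also fitted with the mouse as a block. CNO and vehicle mice share only a number. The alternatives were limma-voom on the recovered reads, a prior count of 2, no filter, upper quartile and median of ratios scaling, the replicate block and leaving out each library.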

Additional observations from a re-analysis of the deposited data

Results flagged for a closer look

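In 4 of 120 groups of libraries of the 30 genes, 1 library stood far from the other 3, where chance alone gives about 1 in 20. Cldn11 was lowest in vehicle input replicate 4 with 170 CPM, against 209 to 216 CPM in the other 3, and the gap took 0.86 of the range of the group on the log2 scale. In the same library Myrf was lowest with 21.4 CPM, against 25.1 to 25.7 CPM, a gap of 0.869 of the range. Neu4 was highest in vehicle input replicate 2 with 14.3 CPM, against 11.6 to 11.9 CPM, a gap of 0.883. Pcdh15 was highest in vehicle IP replicate 3 with 18.8 CPM, against 15.2 to 15.7 CPM, a gap of 0.836. The wide range of the mature genes in vehicle IP gave no such gap, with replicate 3 below and replicate 5 above the others.

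The effect of CNO differed between IP and input for 3 genes of the further lineage lists by limma's interaction test, with n = 4 libraries per group. The difference on the log2 scale was 2.65 for Il11 (SE 0.30, adjusted p = 3.27e-05), 2.56 for Clcf1 (SE 0.45, adjusted p = 2.26e-03) and 0.61 for Rras2 (SE 0.17, adjusted p = 0.0481). In vehicle input Il11 had only 14, 18, 20 and 15 reads, and Clcf1 10, 12, 20 and 20. The call of Rras2 was lost in 17 alternatives, with adjusted p of 0.0510 to 0.108. Sox8 did not pass in the main test but passed as lower in 5 alternatives, with adjusted p of 0.0276 to 0.0485.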

How the results depend on the processing

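No called value of the 30 genes or of the further genes named changed sign under any alternative run. In CNO IP against vehicle IP, 1 of the 30 genes was lower, Cspg4, with upper quartile scaling and with the replicate block, beside 0 in the main test. Leaving out a library gave 0 to 1 there, 22 to 23 genes higher and 1 to 2 lower in CNO IP than in CNO input, and 13 to 23 higher and 2 lower in vehicle IP than in vehicle input. The counts over all genes were 1779 to 2949 (CNO IP against vehicle IP, lowest without vehicle IP replicate 2), 94 to 182 (CNO input against vehicle input, beside 158, with 94, 100, 96 and 105 without vehicle input replicate 2, vehicle input replicate 4, CNO input replicate 5 and CNO input replicate 3), 11294 to 11931 and 11202 to 11719 (IP against input in CNO and vehicle mice), and 590 to 842 (difference of effects). The replicate block gave 102 calls for CNO in input and 1240, beside 773, for the difference of effects with the mouse as block, and among the 30 genes it changed the calls of Cspg4 (adjusted p = 0.0175 in CNO IP against vehicle IP), Mog, Mal and Aspa. Among the further genes named it took the calls of Nkx2-2, Pdgfc and Wnt7b in IP, of Cxcl1 in input and of Rras2 for the difference of effects. Pairs of CNO and vehicle libraries of 1 number correlated at -0.31 to 0.18, and not every library correlated best with its own number, so the number was not taken as a pairing. Upper quartile scaling moved the median log2 ratio of IP over input for all genes to -0.17 in CNO mice and -0.15 in vehicle mice, left 20 and 14 of the 30 genes higher, added Pcdh15 as lower in vehicle mice, and took the calls of Hapln2, Pdgfra and Enpp6 in CNO mice. The share of higher calls was 59.2% for CNO IP against vehicle IP, 39.3% with upper quartile and 48.1% with median of ratios scaling, and 53.3% against 40.3% with upper quartile scaling for IP over input in CNO mice, and 88.0% and 73.2% with upper quartile scaling for the difference of effects. Enpp6 in CNO mice was lost in 8 alternatives, C1ql1 in 4, and in vehicle mice Mog was lost in 11, Mal in 9, Aspa in 7 and Tmem88b in 2. The cause of these changes was not tested. The fewest reads of any of the 30 genes in a library were 156 in IP and 157 in input, both for C1ql1, and what depth limits was not tested.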

Other observations

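Marker lists of further cell types differed in their IP over input ratios. Of 10 striatal interneuron markers, 8 were higher in IP and 1 lower in CNO mice, and 8 were higher and none lower in vehicle mice, with median log2 ratios of 1.99 and 1.96. Of 9 ependymal and choroid plexus markers, 7 were higher and 2 lower in CNO mice, and 7 were higher and none lower in vehicle mice, with medians of 1.59 and 1.92. Of 11 pericyte and smooth muscle markers, 2 were higher and 6 lower in each, with medians of -0.64 and -0.96. The median log2 ratio of the mature oligodendrocyte genes, 0.80 in CNO mice and 0.64 in vehicle mice, lay below those of the interneuron and ependymal lists and above those of the pericyte list and of the microglia markers (-4.21 and -4.56).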
